A study of Mus musculus with 17 samples.

Results

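Visceral endoderm endocytosis and transport genes were described in R1/E mouse embryonic stem cells during differentiation with retinoic acid (RA). The 8 genes are *Cubn*, *Amn*, *Lrp2*, *Dab2*, *Ttr*, *Afp*, *Apoe* and *Apoa1*, of 54532 genes listed. They were chosen by gene symbol and selected on their TPM over the 6 groups of genotype and day, which were known from these same libraries. Their own levels and differences are therefore given as a description, without a test. RNA was sequenced from wild-type cells and from *Usb1* knockout cells at day 0 (without RA), day 1 and day 3 of RA treatment. There were 2 wild-type libraries at day 0 and 3 libraries in each of the other 5 groups, 17 in all. USB1 is the enzyme that trims the oligo(U) tail of U6 snRNA, a core RNA of the spliceosome. The knockout libraries came from a single CRISPR/Cas9 line, KO-1, so the knockout and a difference between clones cannot be told apart. The study asked what *Tut1* and *Usb1* do in development. These libraries served it to compare self-renewal and RA differentiation with and without *Usb1*. It described the RA response of knockout cells as highly similar in direction and size to that of wild-type cells. It also listed splicing events as potentially altered in the knockout.

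Values are in TPM, in which the reads of a gene are divided by its length and then by the total of the library, so that levels can be compared between genes. The reads on genes behind them numbered between 15404379 and 17300186 per library. *Usb1* RNA itself was between 32.0 and 56.9 TPM in the wild-type libraries and between 14.7 and 21.4 TPM in the knockout libraries. By the study's account, the mutant RNA of this line would encode a shortened protein, and U6 snRNA was longer in the line. The RNA level is therefore no measure of the loss of the protein. Wild-type replicate 1 at day 0 stood apart, with 17090 genes above 0 TPM and 239 genes with a single read. In the other 16 libraries, these numbers were at least 21898 and 1224, both lowest in *Usb1* knockout replicate 1 at day 3. Wild-type replicate 2 at day 0 had 22314 and 1352. In every library but these, at least 2150 genes had a single read. Both wild-type libraries of day 0, the baseline of the changes from day 0 in wild-type cells, thus held few genes with a single read. The cells at day 0 had the RNA of embryonic stem cells. *Pou5f1*, which encodes the pluripotency factor Oct4, had a mean of 1382 TPM in wild-type and 1390 TPM in the knockout.

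The visceral endoderm is an epithelium that covers the early embryo and feeds it before the placenta works. Cubilin (encoded by *Cubn*) and megalin (*Lrp2*) are very large endocytic receptors at its apical surface that bind vitamin carriers, lipoproteins and other proteins. Amnionless (*Amn*) anchors cubilin in the membrane and brings it to the surface, and Dab2 is the adaptor that links the cytoplasmic tail of megalin to clathrin. The same epithelium secretes transport proteins. Transthyretin (*Ttr*) carries thyroid hormone and the retinol-binding protein, alpha-fetoprotein (*Afp*) is the major serum protein of the fetus, and apolipoproteins E and A-I (*Apoe* and *Apoa1*) are carried on lipoprotein particles. Cubilin and megalin also serve the kidney and the intestine, and *Apoe* is expressed in many cell types.

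The promoters of the receptor and adaptor genes are shown because all of these genes were higher at day 3 than at day 0 and lower in the knockout. That of *Afp* is shown because it did not follow them between the genotypes. RefSeq promoters (GRCm38.p6) were found for 7 of the 8 genes, with 10 start sites in all. The 250 bases before the start site are printed 5′ to 3′ on the strand of the gene, for *Cubn* (chr2:13491877-13492126, minus strand), *Amn* (chr12:111270846-111271095, plus strand), *Lrp2* (chr2:69586030-69586279, minus strand), the second start site of *Dab2* (chr15:6386498-6386747, plus strand) and *Afp* (chr5:90490464-90490713, plus strand). Capitals mark matches to the motifs searched.
Cubn: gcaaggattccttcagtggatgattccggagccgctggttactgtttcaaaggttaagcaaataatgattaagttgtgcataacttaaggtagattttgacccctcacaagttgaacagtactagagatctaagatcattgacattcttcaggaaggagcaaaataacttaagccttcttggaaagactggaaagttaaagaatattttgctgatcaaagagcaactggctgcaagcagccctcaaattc
Amn: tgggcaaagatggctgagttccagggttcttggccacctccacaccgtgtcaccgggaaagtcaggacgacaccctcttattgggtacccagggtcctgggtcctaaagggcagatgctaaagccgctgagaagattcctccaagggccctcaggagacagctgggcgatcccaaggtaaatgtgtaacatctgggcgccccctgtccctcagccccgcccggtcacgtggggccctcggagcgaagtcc
Lrp2: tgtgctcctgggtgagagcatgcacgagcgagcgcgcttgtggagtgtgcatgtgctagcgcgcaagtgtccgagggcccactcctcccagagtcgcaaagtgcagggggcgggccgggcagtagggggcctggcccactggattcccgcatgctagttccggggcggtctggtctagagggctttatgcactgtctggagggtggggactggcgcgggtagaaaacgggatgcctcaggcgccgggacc
Dab2: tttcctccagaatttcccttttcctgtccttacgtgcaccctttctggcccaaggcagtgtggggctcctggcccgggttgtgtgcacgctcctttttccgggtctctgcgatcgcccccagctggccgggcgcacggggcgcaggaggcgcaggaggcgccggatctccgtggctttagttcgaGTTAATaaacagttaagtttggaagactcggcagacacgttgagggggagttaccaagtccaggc
Afp: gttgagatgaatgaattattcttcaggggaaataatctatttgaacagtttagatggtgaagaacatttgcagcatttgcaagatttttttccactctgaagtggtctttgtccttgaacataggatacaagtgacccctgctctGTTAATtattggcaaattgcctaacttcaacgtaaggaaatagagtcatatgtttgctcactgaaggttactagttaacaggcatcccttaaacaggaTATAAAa

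Motifs were searched on both strands over the 300 bases from 250 before to 50 after each start site. AGATAA, bound by GATA factors, is in 11.2% of all 32851 promoters, TGTTTAC (forkhead factors) in 3.65%, GTTAAT (part of the HNF1 site) in 7.10%, CAAAGTCCA (HNF4) in 0.475%, ACAATG (SOX factors) in 12.6%, TATAAA (the TATA box) in 13.6% and AGTTCA (nuclear receptors) in 14.0%. None of the 7 motifs was found in the *Cubn*, *Amn* and *Lrp2* windows. The *Afp* window held GTTAAT and TATAAA, and the 2 *Dab2* windows held GTTAAT at the second start site and AGATAA at the first. Of the 3 *Apoe* start sites, 1 held the SOX letters, 1 the TATA letters on both strands with overlap, and 1 the forkhead and HNF1 letters. *Apoa1* held the nuclear receptor letters. No other matches overlapped. The base composition of the windows also differed, with 20 CpG dinucleotides in *Lrp2*, 15 in *Amn*, 5 in *Cubn* and 3 in *Afp*, against a median of 7 over all promoters. These letters are a description of the windows and not evidence of binding.

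In wild-type cells, the receptors and their adaptor were between 5.25- and 36.7-fold higher at day 3 of RA than at day 0. Their summed level was 22.9 TPM ± 2.28 (SD, n = 2) at day 0, 47.9 TPM ± 3.87 (SD, n = 3) at day 1 and 379 TPM ± 38.9 (SD, n = 3) at day 3. The same sum in the knockout was 8.02 TPM ± 2.67, 14.6 TPM ± 1.53 and 185 TPM ± 24.9 (SD, n = 3 each). At each of the 3 days, every knockout library was below every wild-type library in this sum. In RNA from whole cultures, fewer cells of a type and less RNA per cell cannot be told apart. The plot of TPM by library shows the 4 genes separately.

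**Figure D1:**
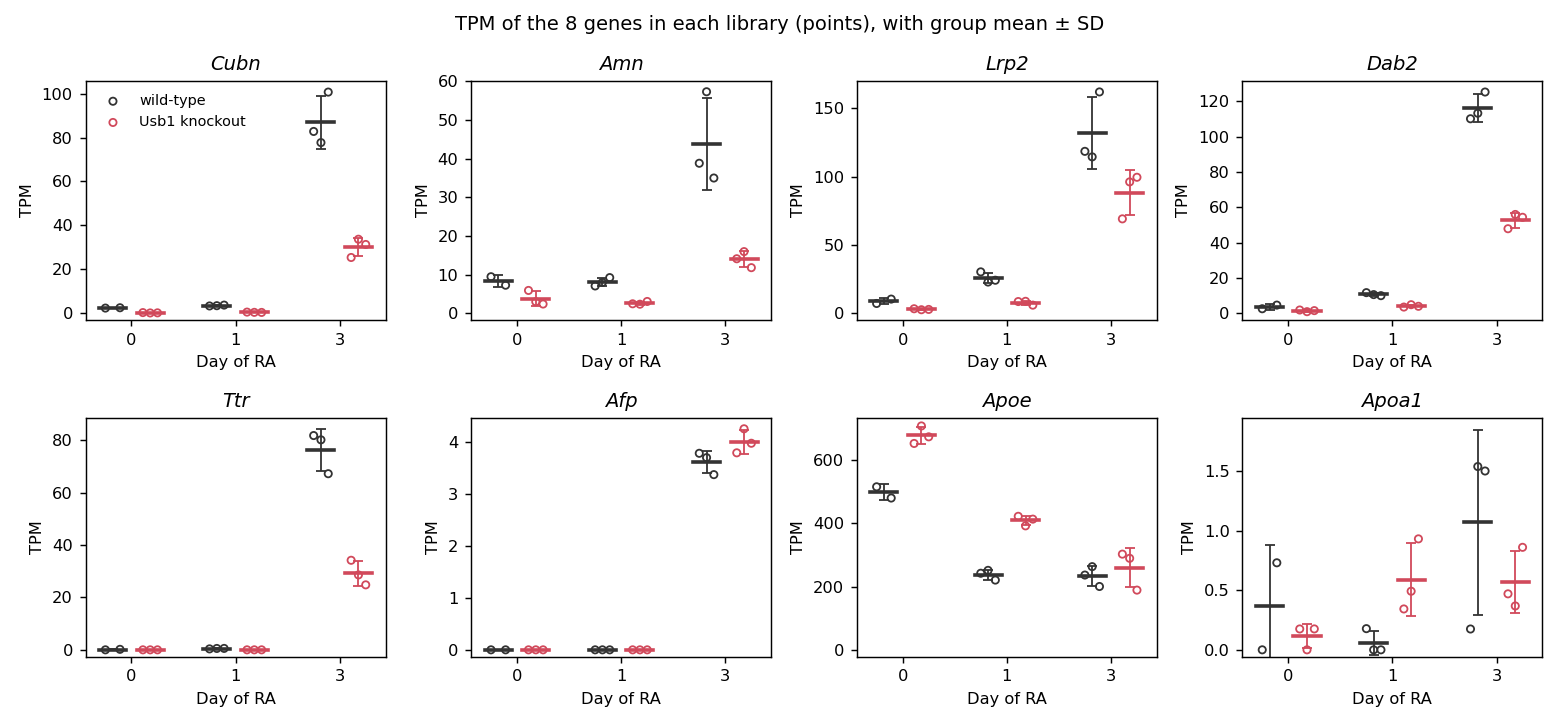
TPM (linear axes) of the 8 genes against the day of RA, with wild-type libraries in black and *Usb1* knockout libraries in red. Points are single libraries, bars are group means and whiskers are SD (n = 2 for wild-type cells at day 0, n = 3 otherwise). *Cubn*, *Amn*, *Lrp2*, *Dab2* and *Ttr* were highest in wild-type cells at day 3, *Afp* was near 4 TPM in both genotypes at day 3, and *Apoe* was highest at day 0.

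*Cubn* (ENSMUSG00000026726, on chromosome 2 from 13276338 to 13491813 in GENCODE M21 on GRCm38, the source of all positions of the 8 genes) had the largest relative difference between the genotypes among the receptor and adaptor genes at day 0 and day 1. The wild-type libraries had 2.30 and 2.45 TPM at day 0, 3.27, 3.38 and 3.66 TPM at day 1, and 82.8, 77.7 and 100.7 TPM at day 3. The *Usb1* knockout libraries had 0.247, 0.0841 and 0.131 TPM at day 0, 0.469, 0.353 and 0.321 TPM at day 1, and 25.4, 33.7 and 31.3 TPM at day 3. The knockout libraries at day 0 rest on between 6 and 17 reads, against 162 and 164 reads in the wild-type libraries. The groups did not overlap on any day. The ratio of the means, wild-type over knockout, was 15.4 at day 0, 9.02 at day 1 and 2.89 at day 3, with 95% intervals from counting error alone of 10.8 to 23.0, 7.23 to 11.5 and 2.82 to 2.99. *Cubn* thus approached wild-type in relative terms during RA treatment while the difference in TPM widened. On the log2(TPM + 1) scale, which understates ratios at low TPM, the knockout minus wild-type difference was −1.55 ± 0.15 (SE), −1.68 ± 0.13 and −1.50 ± 0.13 on the 3 days.

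*Amn* (ENSMUSG00000021278, chromosome 12, 111271095 to 111276426), the partner of *Cubn*, was expressed before RA. Wild-type cells had 9.43 and 7.23 TPM at day 0, 7.04, 7.95 and 9.20 TPM at day 1 and 38.8, 57.3 and 35.0 TPM at day 3. *Usb1* knockout cells had 5.88, 2.95 and 2.36 TPM at day 0, 2.42, 2.31 and 3.02 TPM at day 1 and 14.1, 15.9 and 11.8 TPM at day 3. Every knockout library was below every wild-type library of the same day. The mean was 2.23-fold lower in the knockout at day 0, 3.12-fold at day 1 and 3.14-fold at day 3, so that the ratio did not shrink with time as it did for *Cubn*. Knockout replicate 1 at day 0 was nearest to the wild-type libraries. The ratio of *Cubn* to *Amn* TPM was 0.291 ± 0.0672 (SD, n = 2) in wild-type and 0.0420 ± 0.0135 (SD, n = 3) in knockout cells at day 0. At day 3 it was 2.12 ± 0.762 and 2.19 ± 0.433 (SD, n = 3 each), and the libraries of the genotypes overlapped.

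*Lrp2* (ENSMUSG00000027070, chromosome 2, 69424340 to 69586065) and *Dab2* (ENSMUSG00000022150, chromosome 15, 6299788 to 6440712) were the other receptor and its adaptor. Wild-type cells had 7.07 and 10.3 TPM of *Lrp2* at day 0, 30.2, 22.8 and 24.1 TPM at day 1 and 118, 114 and 162 TPM at day 3. *Usb1* knockout cells had 3.20, 2.48 and 2.70 TPM, then 8.48, 8.65 and 5.84 TPM, and finally 69.0, 96.1 and 99.5 TPM. The groups did not overlap on any day, but the ratio of the means (wild-type over knockout) was 3.10 at day 0, 3.35 at day 1 and 1.49 at day 3. The lowest knockout library at day 3 was replicate 1, the library with the fewest genes above 0 TPM after wild-type replicate 1 at day 0. Without it, the log2(TPM + 1) difference at day 3 was −0.41 instead of −0.57 ± 0.19 (SE).

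For *Dab2*, wild-type libraries were at 2.48 and 4.55 TPM before RA, at 11.6, 10.5 and 9.90 TPM 1 day later and at 110, 113 and 125 TPM by day 3. Knockout libraries were at 1.77, 0.827 and 1.42 TPM, then at 3.44, 4.78 and 3.87 TPM, and finally at 47.8, 55.9 and 54.3 TPM. The genotypes did not overlap on any day, and the ratio of the means was 2.63, 2.65 and 2.21. The adaptor was thus lower in the knockout by a similar factor throughout. At day 0, its lower wild-type library was replicate 1, and the log2(TPM + 1) difference was −0.93 ± 0.20 (SE) with it and −1.27 without it. The ratio of *Dab2* to *Lrp2* TPM at day 3 was 0.898 ± 0.112 in wild-type and 0.607 ± 0.0767 in knockout cells (SD, n = 3 each), and these libraries did not overlap.

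By day 1, *Lrp2* had covered 39.0% of its day 3 change on the log2(TPM + 1) scale in wild-type cells and 25.9% in *Usb1* knockout cells, and *Dab2* 29.7% and 24.6%. For *Cubn*, the corresponding shares were 8.39% and 5.48%. *Amn* was not higher at day 1 than at day 0 in either genotype, with differences of −0.04 ± 0.27 and −0.33 ± 0.24 (SE). As ratios of means, which carry no pseudocount, *Lrp2* at day 1 was 2.96-fold its day 0 level in wild-type and 2.74-fold in knockout cells, *Dab2* 3.03- and 3.01-fold, and *Cubn* 1.45- and 2.48-fold, each without overlap. The shares on the log2(TPM + 1) scale understate changes at low TPM, and for all 4 genes most of the difference lay between day 1 and day 3.

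Of the secreted carriers, *Ttr* and *Afp* were at or near 0 before day 3. *Ttr* (ENSMUSG00000061808, chromosome 18, 20665280 to 20674321) had 0 and 1 read in the wild-type libraries at day 0 and 2, 3 and 3 reads at day 1, and 0 reads in all 6 knockout libraries of these days. By day 3, the wild-type libraries had 81.7, 80.1 and 67.2 TPM and the *Usb1* knockout libraries 34.2, 28.6 and 24.8 TPM. These groups did not overlap, and the ratio of the means was 2.62. In wild-type cells, the level at day 3 was 161-fold that at day 1, with a counting interval of 81.5 to 374 because day 1 holds 8 reads in all. In knockout cells it was at least 58.6-fold higher at day 3 than at day 1, taking 3 reads per library as the limit that 0 reads allow. The change from day 0 to day 3 differed between the genotypes by −1.24 ± 0.22 (SE) on the log2(TPM + 1) scale, knockout minus wild-type, and day 0 holds 1 read in all.

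*Afp* (ENSMUSG00000054932, chromosome 5, 90490737 to 90508907) was listed at 0 in all 11 libraries of day 0 and day 1. By day 3, wild-type libraries reached 3.79, 3.70 and 3.37 TPM and *Usb1* knockout libraries 3.80, 4.26 and 3.98 TPM, from between 49 and 66 reads per library. The level at day 3 was at least 18.7-fold that at day 1 in wild-type cells and at least 22.3-fold in knockout cells, under the same limit of 3 reads per library. Each knockout library at day 3 was above each wild-type library, by a margin smaller than the SD of either group, and the ratio of the means was 1.11 with a counting interval of 0.891 to 1.36. *Afp* therefore did not share the lower day 3 level of *Ttr*, *Cubn*, *Amn*, *Lrp2* and *Dab2* in knockout cells. In wild-type cells at day 3, the mean *Afp* level was 3.62 TPM and the mean *Ttr* level 76.3 TPM. An antisense gene that overlaps *Afp* was at means of 0.403 and 0.382 TPM at day 3 in the 2 genotypes, and the library kit does not keep the strand.

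*Apoe* (ENSMUSG00000002985, chromosome 7, 19696109 to 19699188) was the most abundant of the 8 genes in every group and moved in the other direction. The wild-type libraries had 515 and 480 TPM at day 0, 242, 251 and 220 TPM at day 1 and 236, 263 and 200 TPM at day 3. The *Usb1* knockout libraries had 652, 708 and 673 TPM at day 0, 422, 392 and 413 TPM at day 1 and 302, 289 and 189 TPM at day 3. In wild-type cells, the mean was 2.09-fold lower at day 1 and 2.13-fold lower at day 3 than at day 0. In knockout cells, it was 1.66-fold lower at day 1 and 2.60-fold lower at day 3. Knockout cells were 1.36-fold above wild-type at day 0 and 1.72-fold at day 1 without overlap, and the genotypes overlapped at day 3, where the log2(TPM + 1) difference was 0.14 ± 0.14 (SE) and 0.01 without knockout replicate 1. By day 1, wild-type cells had covered 96.7% of the day 3 change on the log2 scale and knockout cells 51.7%.

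*Apoa1* (ENSMUSG00000032083, chromosome 9, 46228580 to 46230466) had at most 9 reads in any library. Its group means were between 0.0593 and 1.07 TPM. At day 1, the wild-type libraries had 1, 0 and 0 reads and the *Usb1* knockout libraries 2, 3 and 6 reads, a ratio of 9.94 in favour of the knockout with a counting interval of 1.48 to 440. At day 3, the reads were 1, 9 and 8 in wild-type and 3, 2 and 5 in knockout cells, and the groups overlapped. No order between the groups was read from these values.

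At day 3 in wild-type cells, the order of the mean levels was *Apoe*, *Lrp2*, *Dab2*, *Cubn*, *Ttr*, *Amn*, *Afp* and *Apoa1*. *Lrp2* and *Dab2* were not separated in every library, and neither were *Cubn* and *Ttr*. The order of the means was the same in *Usb1* knockout cells at day 3, where *Cubn* and *Ttr* again were not separated in every library and *Lrp2* and *Dab2* were. At day 0, *Amn* was close to *Lrp2* in both genotypes, and *Cubn* was lowest of the receptor and adaptor genes.

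Between the genotypes, 4 of the 8 genes were lower in *Usb1* knockout cells without overlap at day 0, 5 at day 1 and 5 at day 3, and 1, 2 and 1 were higher. Of all 21871 genes tested, 21.3%, 30.4% and 11.0% were lower without overlap on these days and 15.3%, 9.41% and 11.0% were higher. Between day 3 and day 0, 6 of the 8 genes were higher without overlap in wild-type cells and 7 in knockout cells, beside 33.8% and 32.1% of all genes, and *Apoe* was lower in both, beside 26.2% and 24.7%. Between day 1 and day 0, 4 genes were higher in each genotype, beside 34.7% and 25.2% of all genes, and *Apoe* was lower, beside 18.5% and 19.7%. Since the genes were chosen with these values known, nothing is read from the counts. The median log2(TPM + 1) difference between the genotypes over the 8 genes was −0.59, −0.89 and −0.85 on the 3 days, beside 0.00, −0.13 and 0.00 over all genes tested. The plot of the genotype difference by day shows that *Cubn*, *Amn*, *Lrp2* and *Dab2* were on the same side on all 3 days.

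**Figure D2:**
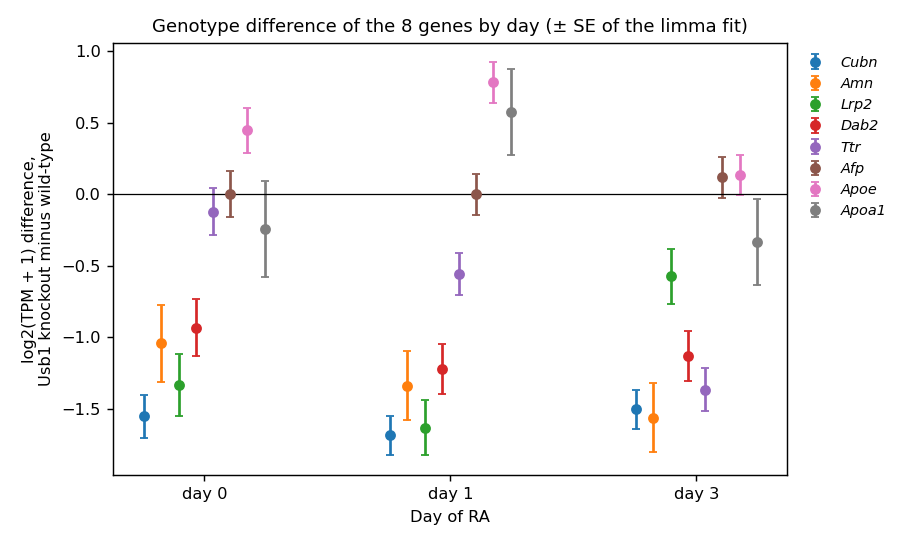
Difference in mean log2(TPM + 1), *Usb1* knockout minus wild-type, for each of the 8 genes at day 0, day 1 and day 3 of RA. Points are differences and whiskers are the SE of the limma fit; *Cubn*, *Amn*, *Lrp2* and *Dab2* were below 0 on all 3 days, *Ttr* reached −1.36 at day 3, and *Apoe* was above 0 at day 0 and day 1.

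In the change from day 0 to day 3, the genotypes were similar for *Cubn*, *Dab2* and *Afp* on the log2(TPM + 1) scale, with differences (knockout minus wild-type) of 0.05 ± 0.20, −0.20 ± 0.26 and 0.12 ± 0.21 (SE). For *Lrp2* the change was larger in the knockout, by 0.76 ± 0.29, and for *Amn* it was smaller, by −0.52 ± 0.36. The value for *Cubn* depends on the scale, and its knockout libraries at day 0 were near 0. With a pseudocount of 0.1 it was 1.80, and with limma's voom on reads recovered from TPM 2.42. For *Ttr*, which was at 0 in the knockout at day 0, the value was −0.64 and −0.65 under these alternatives, in place of −1.24, so that the order of *Cubn* and *Ttr* by the size of this difference turned over.

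The RNA of other endocytic and transport genes was then compared with the 8 genes. These lists were chosen with earlier results of these data known, so their counts beside the share of all genes are a description. Of 51 genes in 4 lists (endocytic adaptors and partners, LDL receptor family and lipoprotein receptors, carriers and apolipoproteins, lysosomal proteases and membrane proteins), 40 passed the filter of at least 1 TPM in at least 2 libraries. Changes were tested with limma on log2(TPM + 1), and a call required at least a 2-fold change and an adjusted p below 0.05 (Benjamini-Hochberg over all genes tested). Between day 0 and day 3, 16 of the 40 rose and 1 fell in wild-type cells, and 16 rose and 2 fell in *Usb1* knockout cells. Over all genes tested, 25.8% were called in wild-type and 21.9% in knockout cells, 16.1% and 13.8% as higher. The 2 sets of 16 shared 14 genes, 87.5% of each. The medians of the lists are given with each of them, beside a median over all genes of 0.10 in wild-type and 0.03 in knockout cells.

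**Figure D3:**
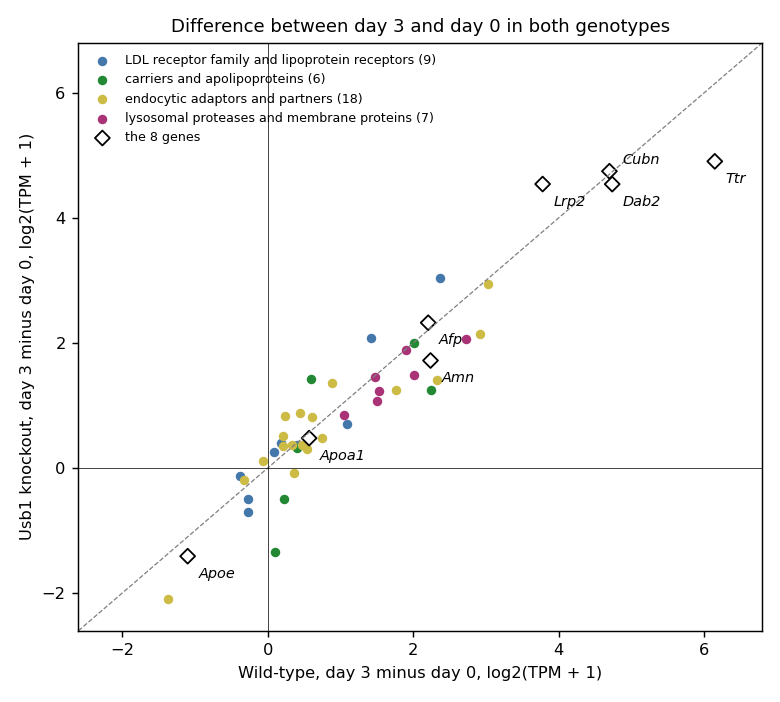
Difference in mean log2(TPM + 1) between day 3 and day 0 in wild-type cells (horizontal axis) and *Usb1* knockout cells (vertical axis). Filled points are the 40 tested genes of the 4 lists, coloured by list with the number of genes in brackets, open diamonds are the 8 genes, and the dashed line marks equal differences; *Cubn*, *Lrp2*, *Dab2* and *Ttr* had larger differences than any gene of the lists in both genotypes, and *Apoe* was below 0 in both.

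Among the 18 adaptors and partners, 4 rose and 1 fell in wild-type cells and 5 rose and 1 fell in *Usb1* knockout cells (median differences 0.46 and 0.50). *Lrpap1*, the chaperone that escorts megalin and related receptors through the secretory pathway, rose by 2.92 ± 0.10 (SE) in wild-type and 2.14 ± 0.09 in knockout cells. *Clcn5*, an endosomal chloride transporter needed for protein uptake in the kidney, rose by 3.02 ± 0.18 and 2.94 ± 0.16. *Myo6*, a motor that moves endocytic vesicles, rose by 2.33 ± 0.11 and 1.41 ± 0.10, and *Fcgrt*, the neonatal Fc receptor, by 1.76 ± 0.15 and 1.25 ± 0.14. The clathrin light chain gene *Cltb* fell by 1.37 ± 0.08 on the log2 scale in wild-type and by 2.09 ± 0.08 in knockout cells. The clathrin heavy chain and the AP2 subunits, which all cells use, changed less than 2-fold in both genotypes. The adjusted p of the named genes was at most 1.9e-06.

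Of the 9 receptors of the LDL receptor family and lipoprotein receptors, 3 rose in wild-type and 2 in *Usb1* knockout cells (median differences 0.18 and 0.37). *Lrp4* rose by 2.36 ± 0.17 (SE) and 3.03 ± 0.15, and *Lrp1*, a close relative of megalin with many ligands, by 1.43 ± 0.21 and 2.07 ± 0.19. *Vldlr* rose by 1.09 ± 0.19 in wild-type cells, but by less than 2-fold under both scaling alternatives (0.62 and 0.97). The adjusted p was at most 4.6e-05 for *Lrp4* and *Lrp1* and 2.2e-04 for *Vldlr*. The 7 lysosomal genes all rose in wild-type cells and 6 of them rose in knockout cells (medians 1.52 and 1.46). *Ctsl*, the lysosomal protease cathepsin L, rose by 2.73 ± 0.08 and 2.07 ± 0.07, *Lgmn* (legumain) by 2.01 ± 0.11 and 1.49 ± 0.10, and *Lamp2* by 1.90 ± 0.09 and 1.89 ± 0.08, with an adjusted p of at most 1.2e-08.

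Of the 17 carriers and apolipoproteins, 6 passed the filter, of which 2 rose in wild-type cells and 3 rose and 1 fell in *Usb1* knockout cells (median differences 0.50 and 0.79). *Alb*, *Afm*, *Gc*, *Apoa2*, *Apoa4*, *Apoa5*, *Apoc2*, *Apoc3*, *Apoc4*, *Apoh* and *Ambp* did not, and their group means were at most 0.819 TPM. *Alb* and *Afm*, the nearest genes to *Afp* in the albumin cluster, were at most at a mean of 0.0602 TPM. *Rbp4*, the retinol carrier that transthyretin binds, rose by 2.01 ± 0.30 (SE) in wild-type and 1.99 ± 0.27 in *Usb1* knockout cells. *Mttp*, which loads lipid onto apolipoprotein B, rose by 2.25 ± 0.14 and 1.25 ± 0.12 (0.98 and 0.97 in the knockout under the scaling alternatives), and *Apob* by 1.43 ± 0.18 in knockout cells. *Apoc1*, another apolipoprotein gene, fell by 1.34 ± 0.17 on the log2 scale in knockout cells. The adjusted p was at most 4.3e-05.

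At day 1, 5 genes of the 4 lists had risen and 1 had fallen in wild-type cells, and 4 and 1 in *Usb1* knockout cells, where 13.9% and 6.95% of all genes were called. *Clcn5* rose by 2.13 ± 0.18 (SE) and 1.22 ± 0.16, *Fcgrt* by 1.61 ± 0.15 and 1.09 ± 0.14 and *Vldlr* by 1.56 ± 0.19 and 1.12 ± 0.17. *Lrpap1* rose by 1.15 ± 0.10 and *Apoc1* by 1.11 ± 0.19 in wild-type cells, and *Rbp4* rose by 1.19 ± 0.27 in knockout cells (adjusted p at most 0.0037). *Apoc1* was under a 2-fold change without wild-type replicate 2 at day 0 (0.91) and under both scaling alternatives (0.97 and 0.91), *Lrpap1* with equal medians (0.94), and *Rbp4* without knockout replicate 2 at day 0 (0.87).

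Between the genotypes, few of the 40 genes were called. *Apoc1*, which lies 3448 bases from *Apoe*, was higher in *Usb1* knockout cells at day 0, by 1.72 ± 0.19 (SE, adjusted p = 8.5e-05, 3.05% of all genes called). With the libraries of day 0 fitted alone, its adjusted p was 0.058 (limma). *Lrp1*, at means of 98.5 TPM in wild-type and 47.1 TPM in knockout cells at day 1, differed by −1.03 ± 0.19 (adjusted p = 0.0022, 2.22% of all genes called). It was under a 2-fold change without wild-type replicate 1 at day 1 (−0.84), without knockout replicate 3 at day 1 (−0.92) and under both scaling alternatives (−0.91 and −0.79) and with voom (−0.95). At day 3, limma called 0 of the 40 genes with 1.29% of all genes called. Of the 40, 17 had an unadjusted p under 0.05, 8 had an adjusted p under 0.05 at a smaller change, and voom called 0. The 1.29% holds for calls of at least 2-fold, so the 17 and the 8 have no share of all genes beside them. Of these 8, named after their values were seen, *Lrpap1* (−0.81 ± 0.09), *Ctsl* (−0.61 ± 0.07), *Lgmn* (−0.59 ± 0.10), *Myo6*, *Ctsz* and *Cltb* were lower and *Scarb1* and *Gipc1* higher in the knockout. The median difference at day 3 was −0.09 over the 18 adaptors, 0.24 over the 9 receptors, −0.15 over the 6 carriers and −0.23 over the 7 lysosomal genes.

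The change from day 0 to day 3 differed between the genotypes for 1 of the 40 genes with at least a 2-fold difference, *Apoc1* (−1.44 ± 0.26 SE, adjusted p = 0.0050), where 2.42% of all genes were called. The wild-type means of *Apoc1* on the 3 days were 9.29, 20.9 and 9.92 TPM, and the knockout means were 32.9, 42.1 and 12.6 TPM. It was thus higher in the knockout where *Apoe* was, at day 0 and day 1. For the change to day 1, limma called 0 of the 40 genes (0.860% of all genes called). Of the 40, 13 had an unadjusted p under 0.05, and voom called 0. No share of all genes is given beside the 13.

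Transcription factors, signals and markers of the visceral endoderm were also compared. This list too was chosen with earlier results of these data known, so its counts beside the share of all genes are a description. Of 13 such genes, 12 were tested, and between day 0 and day 3 11 rose in wild-type and 10 in *Usb1* knockout cells, where 16.1% and 13.8% of all genes rose. Their summed level was between 668 and 715 TPM in wild-type and between 437 and 464 TPM in knockout cells at day 3, after 23.2 to 35.8 TPM and 22.6 to 26.0 TPM at day 0. At day 3, where 1.29% of all genes were called, 5 of the 12 were lower in the knockout, *Gata4* (−1.73 ± 0.25 SE), *Sox17* (−1.63 ± 0.15), *Hnf4a* (−1.34 ± 0.21), *Foxa1* (−1.18 ± 0.17) and *Ihh* (−1.15 ± 0.24), with adjusted p of at most 0.0083. At day 1, where 2.22% of all genes were called, 6 were lower, among them *Sox7* (−2.38 ± 0.20), *Gata6* (−1.71 ± 0.10), *Dkk1* (−1.23 ± 0.16), *Foxa2* (−1.06 ± 0.14) and *Foxa1* (−1.05 ± 0.17), with adjusted p of at most 0.0011. *Hhex* was higher at day 1 by less than 2-fold (0.66 ± 0.14, adjusted p = 0.0054 with limma). *Dkk1*, lower at day 1, was higher at day 3 by less than 2-fold (0.63 ± 0.16, adjusted p = 0.023 with limma). At day 0 limma called 0 (3.05% of all genes called), while 5 had an unadjusted p under 0.05 and voom called 2. No share of all genes is given beside the 5 and the 2. At a smaller change, 1 of the 12 had an adjusted p under 0.05 with limma at day 0. This was *Gata6*, lower in the knockout (−0.75 ± 0.11 SE, adjusted p = 0.00099), with means of 1.11 TPM in wild-type and 0.255 TPM in knockout cells. With a pseudocount of 0.1, limma did not call *Foxa1* and *Ihh* at day 3 (−1.22 and −1.19, adjusted p = 0.19 and 0.29) or *Foxa1* and *Foxa2* at day 1 (−1.18 and −1.42, adjusted p = 0.13 and 0.090). Under the scaling alternatives, *Foxa1* (−0.84 in both) and *Foxa2* (−0.89 and −0.88) at day 1 were under a 2-fold change. *Foxa1* at day 1 was also just under a 2-fold change without wild-type replicate 2, knockout replicate 1 or knockout replicate 3 of that day (−0.998, −0.996 and −0.994). *Cer1*, a marker of the anterior visceral endoderm, was at 0 in every group but knockout day 3 (0.131 TPM).

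**Figure D4:**
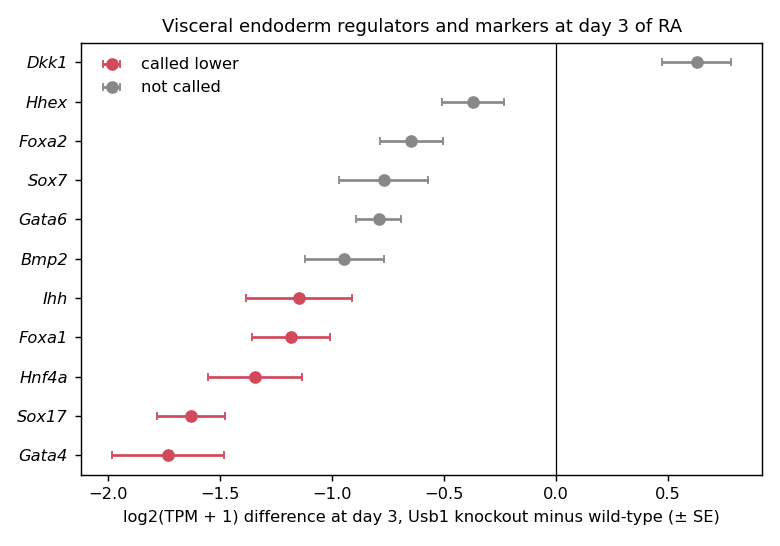
Difference in mean log2(TPM + 1) at day 3 of RA, *Usb1* knockout minus wild-type, for 11 of the 12 tested visceral endoderm regulators and markers. Points are differences, whiskers are the SE of the limma fit and red marks the 5 genes called lower; of those plotted, *Dkk1* alone was above 0.

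Markers of other cell types also differed between the genotypes at day 3, where 1.29% of all genes were called. Their lists were likewise chosen with earlier results of these data known. Of 11 genes listed for parietal endoderm, the other extraembryonic endoderm, 5 were lower in *Usb1* knockout cells (*Lama1*, *Lamb1*, *Col4a1*, *Col4a2* and *Pth1r*). The list includes genes of basement membrane proteins. The 11 genes summed to between 8613 and 10171 TPM in wild-type and between 4501 and 5637 TPM in knockout cells. At day 0 they already summed to 1460 to 1474 TPM in wild-type and 1113 to 1317 TPM in knockout cells, so the list is not particular to this cell type. *Nid1* was higher in the knockout at day 3 without a call, with means of 129 TPM in wild-type and 155 TPM in knockout cells and overlapping libraries. The 5 embryonic stem cell genes summed to between 254 and 294 TPM in wild-type and between 481 and 543 TPM in knockout cells, and 2 of them were called higher, *Nanog* (1.90 ± 0.07 SE) and *Esrrb* (1.76 ± 0.09). Of 5 trophoblast genes, of which 4 were tested, 2 were higher (*Hand1* and *Tfap2c*), with sums of 94.8 to 115 TPM and 156 to 170 TPM. *Cdx2* went the other way without a call, with means of 8.33 TPM in wild-type and 4.69 TPM in knockout cells and no overlap. *Elf5* was at or near 0. Of 6 fibroblast genes, of which 5 were tested, 1 was higher (*Col3a1*), with sums of 44.5 to 54.1 TPM and 71.4 to 79.9 TPM. Of 5 neural genes limma called 0, while 4 had an unadjusted p under 0.05 and voom called 1, with sums of 103 to 113 TPM and 137 to 159 TPM. Of 4 macrophage genes, *Adgre1* and *Ptprc* were at 0 at day 3. Of the other 2 limma called 0, while 2 had an unadjusted p under 0.05 and voom called 1. The macrophage sums were 30.2 to 34.2 TPM in wild-type and 19.8 to 24.4 TPM in knockout cells. For the neural and macrophage genes, the counts at an unadjusted p and with voom have no share of all genes beside them. The part of these differences in the lower *Cubn*, *Amn*, *Lrp2*, *Dab2* and *Ttr* levels of knockout cells was not tested.

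The genes whose levels followed each of the 8 genes most closely were sought among 14398 named genes with a mean of at least 5 TPM in some group. The measure was Pearson's r of log2(TPM + 1) over the 17 libraries, which fall into 6 groups, so that any gene with the same order of groups scores highly. *Cubn* was closest to *Col4a1* (r = 0.993), *Foxq1* (0.992) and *Slc27a3* (0.991). *Col4a1*, a basement membrane collagen, had means of 71.9, 133 and 2374 TPM on the 3 days in wild-type and of 31.3, 52.5 and 1085 TPM in the knockout. *Ttr* was closest to *Lamb1* (0.996), *Rem1* (0.996) and *Akr1c12* (0.995), and *Dab2* to *Vopp1* (0.994), *Gpx3* (0.994) and *Cpm* (0.993). *Amn* was closest to *Sdc4* (0.965), *Fgfr3* (0.961) and *Inava* (0.960), and *Lrp2* to *Zdhhc8* (0.992), *Casc4* (0.992) and *Scamp5*.

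*Afp* had other companions than *Ttr*. The closest were *Acta2* (r = 0.999), *Prss23* (0.998) and *Foxf1* (0.998), genes with means of at most 0.298 TPM before day 3. *Acta2*, which encodes smooth muscle actin, had a mean of 109 TPM in wild-type and 142 TPM in the knockout at day 3, and *Foxf1*, a mesodermal forkhead factor, had 57.1 and 74.9 TPM. *Apoe* was closest to *Gpatch4* (0.961) and *Hira* (0.960), and for *Apoa1* no gene was above 0.743. Among the 8 genes, *Lrp2* and *Dab2* were closest to each other (r = 0.987), *Ttr* and *Afp* had an r of 0.979, and *Apoe* had a negative r with each of the others, from −0.346 to −0.886.

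Protein-coding genes next to *Cubn*, *Lrp2*, *Ttr*, *Apoa1* and *Apoe* were also read. *Rsu1* and *Trdmt1*, on either side of *Cubn*, were at means of 10.7 and 8.41 TPM at day 0 and 15.2 and 6.59 TPM at day 3 in wild-type cells. *Vim*, 82113 bases from *Cubn*, had means of 240, 167 and 523 TPM on the 3 days in wild-type and of 88.9, 58.3 and 494 TPM in the knockout. *Dhrs9* and *Bbs5*, on either side of *Lrp2*, were at most at means of 0.0177 and 14.0 TPM. *Dsg2* and *B4galt6*, beside *Ttr*, were at means of 60.9 and 81.6 TPM in wild-type cells at day 0, when *Ttr* was near 0. *Apoc3*, beside *Apoa1*, was at 0 in every group. On either side of *Apoe* lie *Apoc1*, given above, and *Tomm40*, with means of 166, 122 and 67.8 TPM on the 3 days in wild-type and of 172, 156 and 63.7 TPM in the knockout.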

How the data were processed

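RNA was sequenced from 17 libraries of R1/E mouse embryonic stem cells, wild-type and *Usb1* knockout, on 3 days of RA treatment. The authors extracted total RNA with the RNeasy kit, made libraries with the NEBNext Ultra RNA kit, which does not mark the strand, and sequenced them on a NovaSeq. Per the submitters' processing notes, HISAT2 2.1.0, StringTie 1.3.6 and the genome build GRCm38.p6 were used. The deposited values are TPM, which the authors computed from the length of each gene and its read count. TPM within a library sum to a fixed total, so a few very abundant genes lower all others. Antisense genes overlap *Cubn*, *Dab2* and *Afp*, and their reads cannot be told apart.

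Reads per gene were recovered from the TPM steps with GENCODE M21 lengths, which matched 54495 of 54532 gene identifiers. Between 95.9% and 96.7% of values came out whole within 0.01 reads. *Ttr* came out whole at a length of 1219 bases. Counting intervals (95%) and the limit of 3 reads for a value of 0 cover counting error only. The libraries had between 15404379 and 17300186 reads on genes.

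Groups followed the labels. A linear model with 1 mean per group was fitted to log2(TPM + 1) with limma 3.58.1 in R 4.3.3, with a variance trend, over 21871 genes with at least 1 TPM in at least 2 libraries, and p-values were adjusted by the Benjamini-Hochberg method over all of them. The study's methods describe the replicates as biological and independent. The knockout libraries share 1 line, so p-values measure the spread between replicates and not between lines. The same-numbered libraries did not deviate together (mean r = −0.0052 over 40 pairs, 1 of them over 0.1), so the numbers were not used as pairs. The 8 genes and all gene lists were chosen with earlier results of these data known. The genes named from a list were up to 4 with the largest called change, with every gene of the 8 given in each library. Alternatives were a pseudocount of 0.1, no filter, a minimum of 5 TPM, quantile normalization, equal medians, the libraries of a comparison alone, limma's voom on the recovered reads, a replicate block, no minimum fold change and leaving out each library. The fit was tested on simulated data. Promoter sequences were taken from RefSeq. Amino acid sequences were not used here, and the values of some list genes are not reported here. Python 3.11.15 with pandas 2.3.3, numpy 2.4.6 and matplotlib 3.10.9 was used.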

Additional observations from a re-analysis of the deposited data

Results flagged for a closer look

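For 6 genes of the 4 pathway lists and the visceral endoderm list, the change with RA differed between *Usb1* knockout and wild-type cells by a test of the difference itself (limma, adjusted over all genes, knockout minus wild-type, log2(TPM + 1) ± SE, 3 libraries per group and 2 for wild-type cells at day 0). Of all genes, 0.860% were called for the change to day 1 and 2.42% for that to day 3. Other marker lists also held called genes. For day 1, 1 parietal endoderm gene was called with a negative difference. For day 3, 2 parietal endoderm genes had a negative difference, and 2 embryonic stem cell genes, 1 fibroblast gene and 1 trophoblast gene a positive one. From day 0 to day 1, *Sox7* differed by −1.90 ± 0.30 (adjusted p = 0.0062) and *Dkk1*, a secreted Wnt inhibitor, by −1.22 ± 0.23 (adjusted p = 0.018). *Dkk1* lost its call without wild-type replicate 1 at day 0 (−1.10, adjusted p = 0.065), in which 17090 genes were above 0 TPM, with the libraries of the comparison alone (−1.22, adjusted p = 0.064) and with quantile normalization (−0.79, adjusted p = 0.13). It also did so where the difference was larger, with a pseudocount of 0.1 (−2.46, adjusted p = 0.099) and with voom (−2.56, adjusted p = 0.27). From day 0 to day 3, *Ihh* differed by −1.92 ± 0.36 (adjusted p = 0.0066), *Sox17* by −1.47 ± 0.23 (adjusted p = 0.0021), *Apoc1* by −1.44 ± 0.26 (adjusted p = 0.0050) and *Bmp2* by −1.14 ± 0.27 (adjusted p = 0.023). *Sox17* lost its call with a pseudocount of 0.1 (−0.96, adjusted p = 0.44) and with voom on recovered reads (−0.59, adjusted p = 0.79). *Bmp2* lost its call under 8 alternatives, with adjusted p between 0.051 and 0.084, among them without wild-type replicate 1 at day 0 (−1.09), without knockout replicate 3 at day 0 (−1.10) and without knockout replicate 3 at day 3 (−1.04). Its difference was −2.16 with a pseudocount of 0.1, −3.08 with voom and −0.82 with quantile normalization.

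*Apoa1* was noted because its level from day 0 to day 1 moved in opposite directions in the genotypes, by a difference of 0.81 ± 0.45, knockout minus wild-type. This difference was not tested, and the libraries of these days hold between 0 and 6 reads of the gene.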

How the results depend on the processing

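Of 1782 recomputed values of single genes among the 8, 1666 stayed within 1 SD of the replicates, as did 201 of 225 medians over the 8 genes. Of 1424 recomputed calls of named list genes, 41 lost the call and 0 changed sign, and 200 of 234 counts over the 40 pathway genes stayed within 1.5 times. The counts of pathway genes called for knockout against wild-type at day 0 and day 1 and for the difference in the day 3 change, each 1 as reported, were 2, 2 and 3 with a pseudocount of 0.1 and 3, 2 and 4 with voom. The last was 2 with no filter, the last 2 of them were 2 and 3 with quantile normalization and with equal medians, and the first was 0 with the libraries of the comparison alone. Without a minimum fold change, the counts were 12, 16 and 8 between the genotypes at day 0, 1 and 3, 18 and 29 for day 1 and day 3 in wild-type cells, 22 and 35 in knockout cells, and 1 and 9 for the differences in change. The share of all genes without this minimum is not given, so nothing more is read from these counts. Leaving out 1 library gave 1 to 2, 0 to 2 and 1 to 2 for the counts of 1. The first was 2 without wild-type replicate 2 of day 0. The second was 0 without wild-type replicate 1 or knockout replicate 3 of day 1 and 2 without wild-type replicate 2 or 3 or knockout replicate 1. The last was 2 without wild-type replicate 2 of day 0, wild-type replicate 2 or 3 of day 3, or knockout replicate 1 or 3 of day 0 or day 3.

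The median over the 8 genes between the genotypes at day 0 and day 1 was −0.995 and −1.50 with a pseudocount of 0.1 and −0.96 and −1.41 with voom, and at day 1 −0.70 with quantile normalization and −0.77 with equal medians. The medians for day 3 in wild-type, day 1 in knockout and day 3 in knockout cells were 4.49, 0.48 and 5.09 with the pseudocount of 0.1 and 4.51, 0.68 and 5.08 with voom. With a minimum of 5 TPM, which leaves fewer genes, the medians between the genotypes were −0.99, −1.28 and −1.25, those in wild-type cells 0.42 at day 1 and 4.24 at day 3, and that in knockout cells 4.54 at day 3. With quantile normalization, the day 1 median in wild-type cells was −0.12 and the *Ttr* value −0.039. The median difference in the day 1 change was −0.0332 (pseudocount 0.1), 0.048 (quantile) and −0.028 (voom), and it was 0.45, 0.056, 0.029 (equal medians) and 0.88 for *Cubn* in the order pseudocount, quantile, equal medians and voom, and 0.039 for *Ttr* with quantile normalization. Without 1 library, this median ran from −0.27 to −0.028 (without wild-type replicate 1 at day 0), and the day 0 median between the genotypes from −0.75 (without that library) to −0.30 (without wild-type replicate 2). Why these values moved was not tested. Quantile normalization shifted the median of all genes for day 1 in wild-type cells by −0.17 and equal medians by −0.16. With the replicate block, the counts of pathway genes were as reported (17 and 18 at day 3), and the day 0 median over the 8 genes between the genotypes was −0.64 in place of −0.59. Values from under 10 reads are limited by depth, which holds for *Apoa1* in all groups, *Ttr* and *Afp* before day 3 and *Cubn* in 2 of the 3 knockout libraries at day 0.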
